A study of Mus musculus with 2 samples.

Results

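The genes described here are 8 mouse genes for receptors that bind antibodies through their constant (Fc) part, for their relatives of the Fc receptor-like (FcRL) family, and for antibody transporters: Fcgr2b, Fcer2a, Fcmr, Fcrla, Fcrl1, Fcrl5, Fcgrt and Pigr. They were chosen by name, with earlier results of these data known. All 8 were found among 21631 protein-coding genes of the RefSeq annotation of GRCm38 (mm10). Binding of the transcription factor IRF4 was measured by ChIP-seq in CH12.LX, an immortalized mouse B-cell lymphoma line whose labels give the strain B10.H-2aH-4bp/Wts and female sex. The study has 1 group of 2 biological replicates with no treatment, and nothing in the labels says whether the replicates came from separate cultures. The labels point to another experiment as a possible control, which was not used here. With 1 group there is no contrast between conditions, and the counts below are descriptions with no test.

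Fc receptors let a cell sense antibody that is bound to antigen, and on B cells some of them carry inhibitory motifs that dampen signals from the antigen receptor. FcRL proteins share immunoglobulin-like domains with the Fc receptors and are mostly expressed in B cells. IRF4 binds weakly alone and is known to bind composite elements with an ETS factor such as PU.1 (EICE) or with an AP-1 factor such as BATF (AICE), or tandem copies of its own GAAA core (ISRE). The transporters move antibody across cell layers or protect it from breakdown.

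A summit is the highest point of a peak, and it was given to a gene when it lay in the gene body or within 10 kb of either end. Peaks came from the optimal list on mm10, which holds 44058 peaks that passed a reproducibility threshold (IDR). The signal of a peak is the authors' value from their peak caller. Its scale is not known, so it ranks peaks within a list, and replicate signals are set beside the ratio over all matched peaks. Distances from a gene start are positive in the direction of transcription. A replicate signal is that of the nearest summit within 100 bp in the list of that replicate. Read depth is unknown. The replicate lists hold 215095 peaks (replicate 1) and exactly 300000 (replicate 2).

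The sequences below lie at 7 summits: the strongest of Fcgr2b, Fcrla, Fcrl5 and Pigr, and the others that hold an IRF composite or tandem element. They were read from the mm9 genome, plus strand, 5′ to 3′, at the mm9 peak that lay at the same distance from the same gene start. Capitals mark the element found by the search, or the GAAA cores (read as TTTC) where no element was found. At the start of Fcgr2b, chr1:172906218-172906247, the capitals are an EICE. In the first part of Fcgr2b, chr1:172905046-172905146, they are an AICE with a gap of 4 bases. In Fcrla, chr1:172854795-172854895, they are an EICE on the minus strand. At Fcrl5, 29897 bp after its start, chr3:87269531-87269631, they are an AICE whose parts adjoin. At the strongest site of Fcrl5, chr3:87291998-87292098, they are 4 GAAA cores. Before Pigr, chr1:132716431-132716531 holds an AP-1 site and chr1:132717318-132717418 holds an ISRE. An AP-1 site here is any match to TGANTCA, where N is any base, and the match before Pigr is TGAATCA.
Fcgr2b start: gtccaaatggGGAAGTGAAAagaaacggtc
Fcgr2b intron: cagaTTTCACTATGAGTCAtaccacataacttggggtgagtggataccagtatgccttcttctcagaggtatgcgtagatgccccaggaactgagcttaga
Fcrla intron: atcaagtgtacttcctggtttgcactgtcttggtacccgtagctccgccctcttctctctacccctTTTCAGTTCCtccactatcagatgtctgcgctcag
Fcrl5 AICE site: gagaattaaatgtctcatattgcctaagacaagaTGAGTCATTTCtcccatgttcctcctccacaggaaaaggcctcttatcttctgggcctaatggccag
Fcrl5 strongest site: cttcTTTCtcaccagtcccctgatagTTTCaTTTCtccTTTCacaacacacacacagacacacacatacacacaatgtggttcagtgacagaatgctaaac
Pigr upstream strongest: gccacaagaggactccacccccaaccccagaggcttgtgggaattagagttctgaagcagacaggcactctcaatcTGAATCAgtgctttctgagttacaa
Pigr upstream second: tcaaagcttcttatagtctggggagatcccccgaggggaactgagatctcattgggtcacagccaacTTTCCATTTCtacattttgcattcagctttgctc

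IRF4 summits lay at 7 of the 8 genes, and Fcgrt was the gene without one. Among all protein-coding genes 62.3% had a summit by the same rule. In the stricter conservative list, 6 of the 8 genes had a summit, against 57.4% of all genes. Fcgr2b, Fcrla, Fcrl5 and Pigr, 4 of the 8, had a summit in the strongest quartile of the optimal list (signal of at least 66.2), against 26.6% of all genes. Counted in the gene body alone, 6 of the 8 had a summit, against 41.9% of all genes. Of the 8 genes 3, Fcgr2b, Fcrla and Fcrl5, had a summit within 1 kb of their start, against 35.0% of the 17274 genes with a start.

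The 7 genes held 26 distinct summits, none shared between them, of which 13 lay in a gene body and 13 outside. Of the 26, 9 also lay in the window of another protein-coding gene. The median gene of the 8 had 3.5 summits, against 1 over all protein-coding genes. Per 100 kb of window, the median was 8.51 summits for the 8 genes and 2.34 for all protein-coding genes. The windows were of similar length, with a median of 35.3 kb for the 8 genes and 37.3 kb for all. Single summits were of ordinary strength: their median signal was 42.5, against 41.4 over the whole list, and 5 of 26 (19.2%) fell in the strongest quartile. The range ran from 9.88 in the window of Fcer2a to 316.2 in Fcrl5. The same peak interval was present in the conservative list for 19 of 26 (73.1%), against 72.3% of all optimal peaks. At the edge of the windows, the farthest summit inside lay 8093 bp before Pigr with a signal of 49.6, and the nearest outside lay 12032 bp beyond Fcrl5 with a signal of 42.0.

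**Figure D1:**
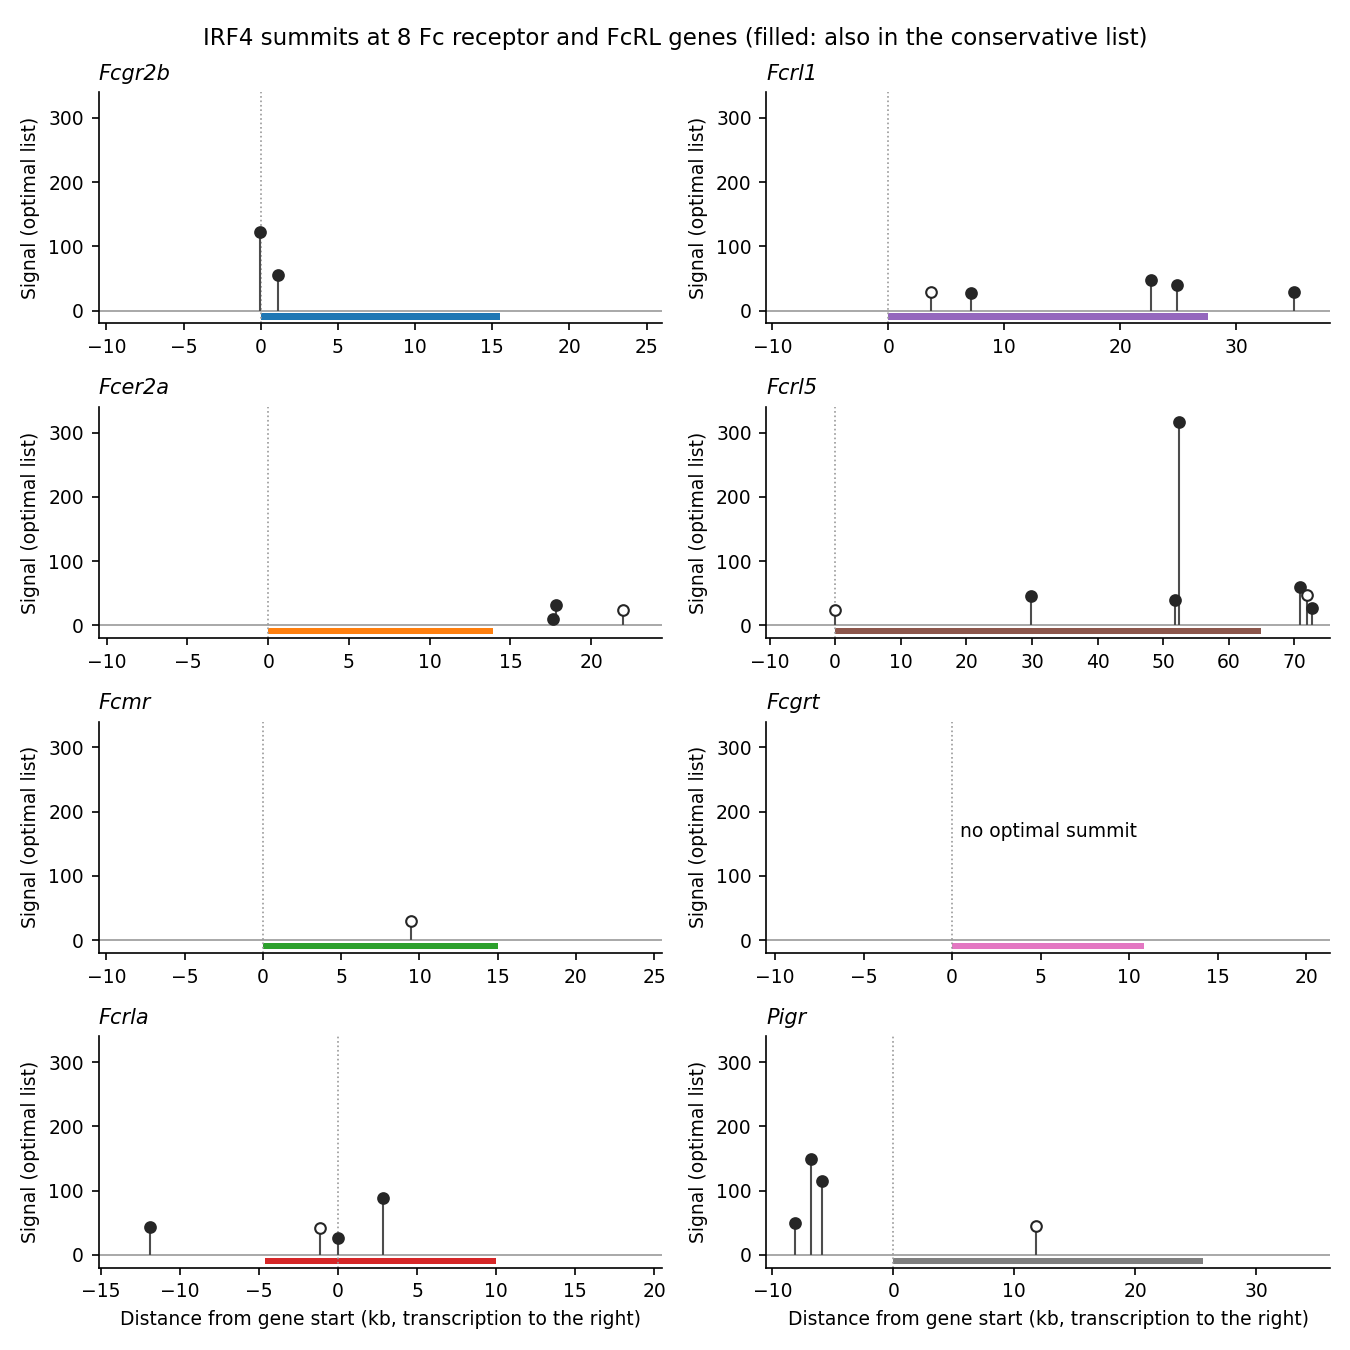
IRF4 summits of the optimal list at each of the 8 genes, with distance from the gene start in kb on the x axis and signal on the y axis. The coloured bar is the gene body, and filled points have the same peak interval in the conservative list. Fcgr2b has its strongest summit (122.7) at the start, Fcrl5 has its strongest (316.2) far downstream, Pigr has its strongest (149.4) upstream, and Fcgrt has none.

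Fcgr2b encodes the inhibitory IgG receptor of B cells, which recruits the phosphatase SHIP1 when it is joined to the antigen receptor. Its gene (chr1:170960558-170976071, minus strand, mm10) held 2 summits, and both were in the conservative list. The stronger, in the peak chr1:170975915-170976254, lay 14 bp before the gene start and had a signal of 122.7, rank 3984 of 44058. Its signal was 59.2 in replicate 1 and 66.6 in replicate 2, a log2 ratio of replicate 2 to replicate 1 of 0.17, below the median of 0.53 over all matched peaks. The other peak, chr1:170974788-170975127, lay 1113 bp after the start with a signal of 55.7. It had 15.9 in replicate 1 and 39.7 in replicate 2, a log2 ratio of 1.32, above that median. Its count of 2 summits was reached by 43.3% of all protein-coding genes. Its density of 5.63 per 100 kb was above the median of 2.34 over all protein-coding genes. It was below the median of 8.51 for the 8 genes.

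Both Fcgr2b sites held an IRF composite element, of different kinds. The EICE at the start reads GGAAGTGAAA, lay 12 to 21 bases from the mm9 summit, and lies 35 to 26 bases before the RefSeq gene start, on the plus strand of the genome. An EICE (GGAANNGAAA, either strand) was present in 2.72% of 32851 RefSeq promoters of mouse, taken from 250 bases before to 50 bases after a start. The mm9 transcripts of GENCODE place the summit in an untranslated exon. The site 1113 bp after the start is in an intron of the same annotation. Its AICE joins a TTTC core and a TGAGTCA AP-1 site across 4 bases. That AICE lay farther out, at -46 to -32 bases from the mm9 summit.

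Fcer2a encodes CD23, the low-affinity IgE receptor of mature B cells. None of the 3 summits in its window (gene body chr8:3680280-3694174, minus strand) lay in the gene body. They lay 3742, 3945 and 8072 bp beyond its 3′ end. The strongest, in the peak chr8:3676165-3676504, had a signal of 30.9 and lay 64 bp from the start of the predicted gene Gm45231. The one nearest to the Fcer2a start, chr8:3676368-3676707, had a signal of 9.88 and lay 61 bp from the start of Trappc5, a gene for a subunit of a vesicle tethering complex. The remaining one, with a signal of 24.5, lay in the body of Fcor, a gene for a corepressor of Foxo1. These neighbours were named after the values were seen.

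The replicates did not place the first pair of Fcer2a summits alike. The site of signal 30.9 was matched in replicate 1 (14.8) and not in replicate 2, and the site of signal 9.88 was matched in replicate 2 (23.8) and not in replicate 1. The pair lies 203 bp apart, and both were matched in both replicates when a distance of 250 bp was allowed. At that distance 1 replicate summit can match both sites, so the wider match does not show that each replicate has both. No mm9 peak was matched to any of the 3.

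Fcmr encodes the receptor for the Fc part of IgM. It held 1 summit (gene body chr1:130865777-130880790, plus strand), the fewest among the 7 genes with any. The peak, chr1:130875086-130875425, lay in the gene 9479 bp after the start, in an intron of the mm9 annotation, where the gene is named Faim3. Its signal was 30.0, rank 32420, with 15.8 in replicate 1 and 12.1 in replicate 2. It was absent from the conservative list, so Fcmr had no summit there.

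Fcrla encodes a soluble FcRL protein that stays inside B cells and binds immunoglobulin. Its RefSeq gene body (chr1:170917594-170932216, minus strand) reaches farther upstream than the start given in the RefSeq promoter table (position 170927583), from which distances are counted here. Its window held 4 summits, 11.6 per 100 kb, a density reached by 8.88% of protein-coding genes. The strongest, chr1:170924552-170924891, lay 2861 bp after the start in an intron and had a signal of 88.7, rank 6860. Replicate 2 gave 58.7 there and replicate 1 gave 28.5. Its EICE, read as TTTCAGTTCC on the plus strand, lay 16 to 25 bases from the summit. The summit nearest to the start lay 18 bp after it with a signal of 26.6, and it had 16.1 in replicate 1 and 13.4 in replicate 2. The RefSeq promoter at that start holds an ISRE 192 to 183 bases before it, an element present in 3.44% of promoters. Of the other 2 summits, the one 1122 bp before that start was still in the gene body and had a signal of 41.8. The one 11896 bp before it lay 7263 bp beyond the upstream end of the gene body and had a signal of 43.3.

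Fcrl1 encodes a B-cell surface protein of the family that has activating motifs in its tail. It held 5 summits (gene body chr3:87376353-87403967, plus strand), a number that 12.5% of genes reached, all of modest signal between 27.6 and 47.7. The strongest, chr3:87398834-87399173, lay 22617 bp after the start and had a signal of 47.7, with 25.9 in replicate 1 and 21.5 in replicate 2. The one nearest to the start lay 3713 bp after it with a signal of 29.1, and it had 17.6 in replicate 1 and 7.50 in replicate 2. That was the lowest ratio of replicate 2 to replicate 1 among the 23 summits matched in both. No summit of Fcrl1 was near its start. Its RefSeq promoter holds a PU.1 site (GAGGAAGT) 15 to 8 bases before the start, a word present in 3.20% of promoters. It also holds an AP-1 site 140 to 134 bases before the start, a match present in 7.81% of promoters.

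Fcrl5 encodes an FcRL protein with both activating and inhibitory motifs, known in mouse from marginal zone and B-1 cells. Its window held 7 summits (gene body chr3:87435777-87500678, plus strand), a number that 6.10% of genes reached, and 3 of them lay in the gene body. Its window is long, and 16.1% of genes reached its density of 8.24 per 100 kb. The peak chr3:87487971-87488245, 52344 bp after the start, had a signal of 316.2 and rank 226, within the top 0.513% of the list. It had 153 in replicate 1 and 161 in replicate 2, so both replicates gave it their highest signal among the 26 sites. The next, chr3:87506489-87506828, lay 70877 bp after the start and 5981 bp beyond the gene body. Its signal was 60.4, with 24.5 in replicate 1 and 39.7 in replicate 2. A neighbour 71944 bp after the start, 7048 bp beyond the gene body, had a signal of 46.9. It had 8.40 in replicate 1 and 35.8 in replicate 2. That was the highest ratio of replicate 2 to replicate 1 among the 23 summits matched in both.

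At the start of Fcrl5, the peak chr3:87435584-87435923 had a signal of only 24.0, with 8.70 in replicate 1 and 12.0 in replicate 2. The same peak interval was not present in the conservative list. The promoter holds an AP-1 site 11 to 5 bases before the start (TGANTCA, present in 7.81% of promoters), shown in capitals in the RefSeq sequence of GRCm38.p6, chr3:87435759-87435788, plus strand.
Fcrl5 promoter: acttcctttttcTGATTCAagttacactca

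Whether a downstream site is in the gene depends on the annotation, and the strongest site of Fcrl5 is 1 such case. In RefSeq the gene spans 64.9 kb, and the site lies 12552 bp before its end. In the mm9 annotation of GENCODE the gene spans 22.0 kb, and the matched mm9 summit lies 30290 bp beyond its end. The AICE site 29897 bp after the Fcrl5 start and the strongest site of Fcrl1 are likewise in the RefSeq gene body and outside the GENCODE gene. The strongest Fcrl5 site also lies in the noncoding gene Gm40085 and 37452 bp before the start of Etv3, a gene for an ETS-family repressor. In the mm9 list the site had a signal of 644.9 and rank 213 of 27671. The 4 GAAA cores in its printed sequence all read as TTTC on the plus strand. At least 4 cores on 1 strand were present at 4.18% of all mm9 summits and at no other matched site of these genes, a count made after the sequence was seen. None of the 11 motifs searched was found there.

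**Figure D2:**
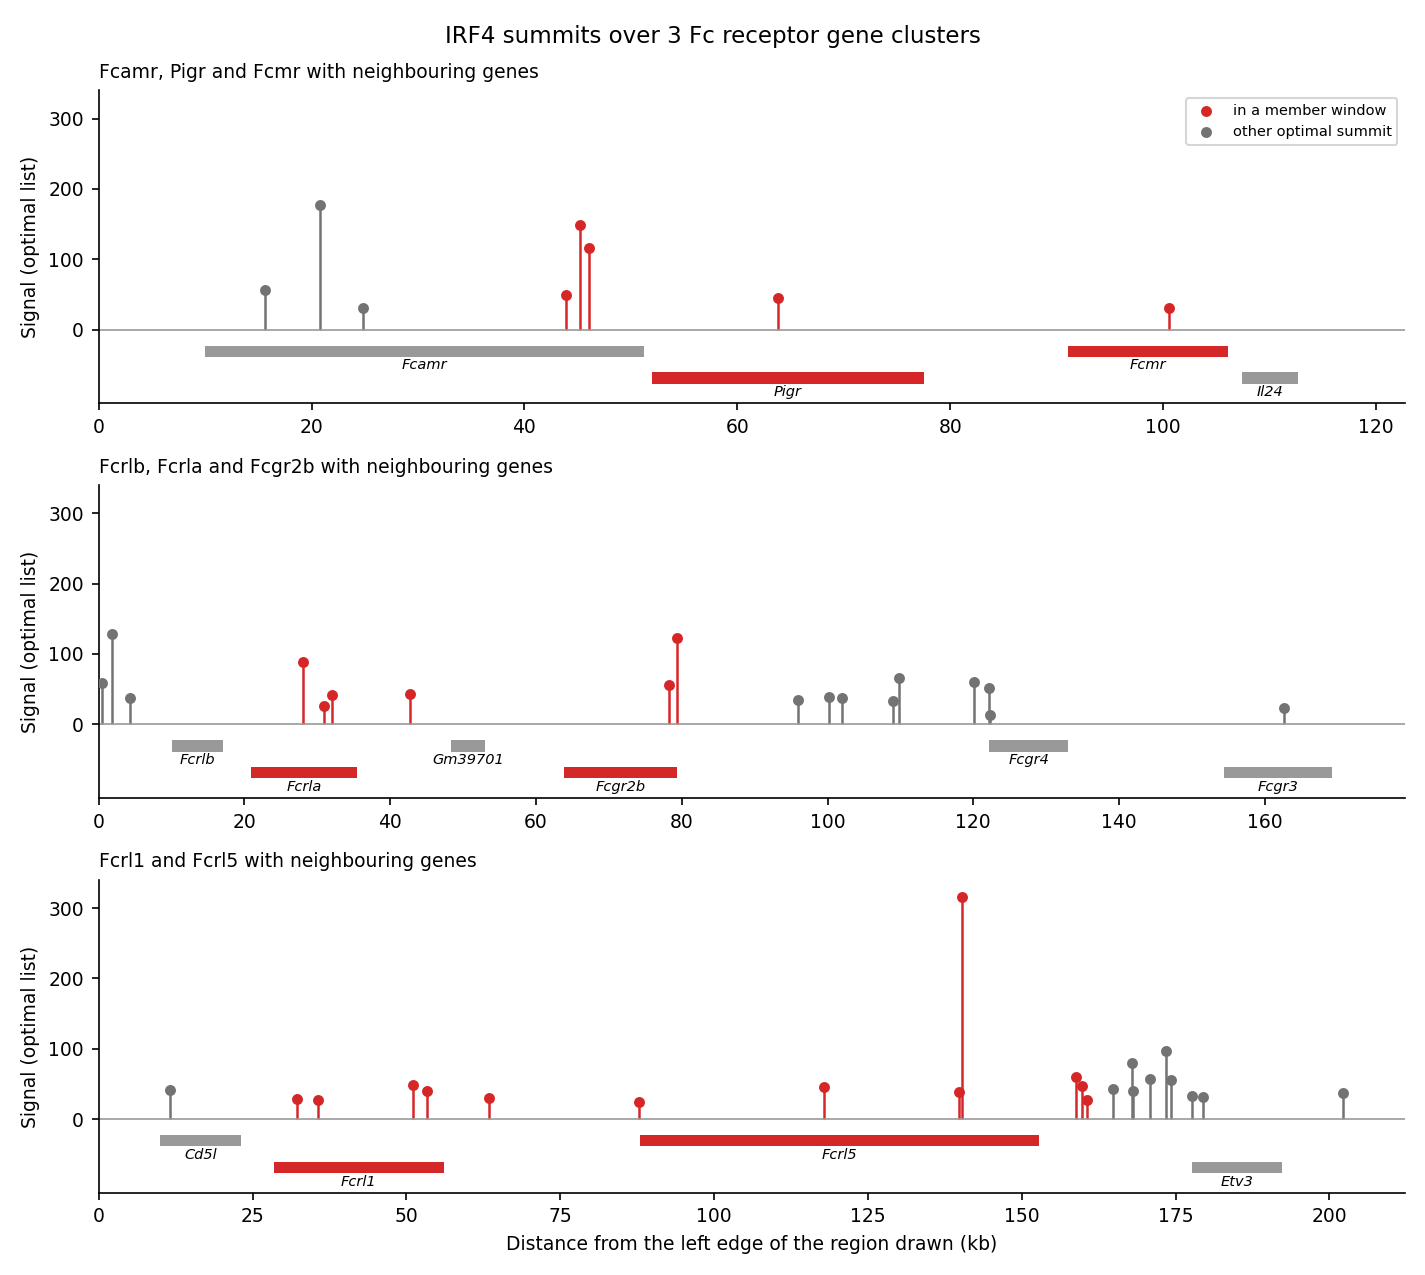
Signal of every optimal summit (y axis) across 3 gene clusters, with distance from the left edge in kb on the x axis; red points lie in the window of 1 of the 8 genes, grey points do not, and bars are gene bodies. The site of signal 316.2 lies in the right part of Fcrl5, with a weaker summit (39.0) 499 bp before it. The summits of signal 149.4 and 115.4 assigned to Pigr lie within the body of Fcamr.

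Fcgrt encodes the heavy chain of the neonatal Fc receptor, which rescues IgG from breakdown and pairs with beta-2 microglobulin. It had no optimal summit (gene body chr7:45092993-45103822, minus strand), and the nearest lay 12938 bp beyond the gene with a signal of 34.8. The relaxed lists, which include background, held 5 summits in its window in replicate 1, 9 in replicate 2 and 8 in the pooled list. The strongest of the pooled list had a signal of 15.1, rank 80117 of 300000, and lay 20568 bp after the gene start. In replicate 1 the strongest (9.55) lay 20567 bp after the start. In replicate 2 the strongest (8.85) was another site, 10341 bp after the start. Binding below the threshold of the optimal list cannot be told apart from background here.

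Pigr encodes the polymeric immunoglobulin receptor, which carries IgA and IgM across epithelia and is known mainly from epithelial cells. It held 4 summits (gene body chr1:130826684-130852249, plus strand), a number that 18.8% of genes reached. The strongest, chr1:130819721-130820060, lay 6793 bp before the start and had a signal of 149.4, rank 2723, with 54.6 in replicate 1 and 92.6 in replicate 2. The summit nearest to the start, chr1:130820614-130820953, lay 5900 bp before it with a signal of 115.4, and it had 58.2 in replicate 1 and 56.4 in replicate 2. A further one lay 8093 bp before the start with a signal of 49.6, and it had 18.4 in replicate 1 and 30.8 in replicate 2. These 3 all lie in the body of Fcamr, the neighbouring gene for a receptor of IgA and IgM, and count for both genes. The only summit in the body of Pigr lay 11827 bp after the start with a signal of 44.4, and it was not in the conservative list.

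Over the matched mm9 sites, 14 of the 26 summits (53.8%) had an mm9 peak, at a distance from the same start that differed by 0 to 29 bp. Matched summits had a median mm10 signal of 52.6, and unmatched ones 28.3. At least 1 of the 4 IRF elements lay within 50 bp of the summit at 5 of the 14, against 16.0% of all 27671 mm9 summits. EICE was found at 2 sites (8.68% of all summits), ISRE at 1 (5.79%), AICE with adjoining parts at 1 (1.13%) and AICE with a gap of 4 bases at 1 (1.12%). ISRE is GAAANNGAAA, and the 5 sites are those printed with such an element. AP-1 sites alone or within an AICE were found at 4 of the 14, against 16.0% of all, so each AICE site counts here too. The ETS word GGAAGTGA was found at 1, within the EICE at the Fcgr2b start, against 6.81% of all. The PU.1 word, the octamer ATGCAAAT, the EBF1 motif TCCCNNGGGA, the RUNX word TGTGGTTT and the E-box CAGCTG were found at none of the 14, where they were present at 4.93%, 2.61%, 1.15%, 2.79% and 8.72% of all mm9 summits. Median GC content was 48.0% at the 14 sites and 49.5% at all mm9 summits.

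A list of 22 further genes covers 10 other Fc receptors and relatives and 12 partners of Fc receptors in signalling, assembly or antibody transport. Of these 22, 21 had a summit, against 62.3% of all protein-coding genes: 9 of the 10 receptors and 12 of the 12 partners, and the exception was Fcer1a, the ligand-binding chain of the high-affinity IgE receptor, named after its value was seen. In the conservative list 19 of 22 had a summit, against 57.4% of all genes, and 14 of 22 had one in the strongest quartile, against 26.6%. The median density was 8.51 summits per 100 kb in the 8 genes, 5.85 in the other receptors and 7.84 in the partners. The median of the strongest signal, over genes with a summit, was 88.7 in the 8 genes, 70.4 in the other receptors, 114.2 in the partners and 58.3 over all protein-coding genes. Median window length was 71.1 kb in the partners, 29.6 kb in the other receptors and 37.3 kb over all protein-coding genes. Longer windows can hold more summits, so the partners are not compared at equal length.

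Of the 22 genes, the 4 with the strongest summits were all partners. Syk, a kinase that acts downstream of activating Fc receptors, had a site of 352.9 with 163 in replicate 1 and 193 in replicate 2. The peak of that site, chr13:52572583-52572788, lay outside the Syk gene body, before its first base at 52582610. It was given to Syk only through the window of 10 kb. Lyn, the kinase that phosphorylates the motifs of activating Fc receptors, had 287.5. Inpp5d, which encodes the phosphatase SHIP1 recruited by Fcgr2b, had 253.6. B2m, the light chain partner of Fcgrt, had 9 summits, of which 2 lay in the gene body, whereas Fcgrt itself had none. The strongest B2m summit (200.5) lay beyond the gene body, 13977 bp after the start. Fcamr had 6 summits, 3 of them shared with Pigr, and its strongest (177.8) was not shared.

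**Figure D3:**
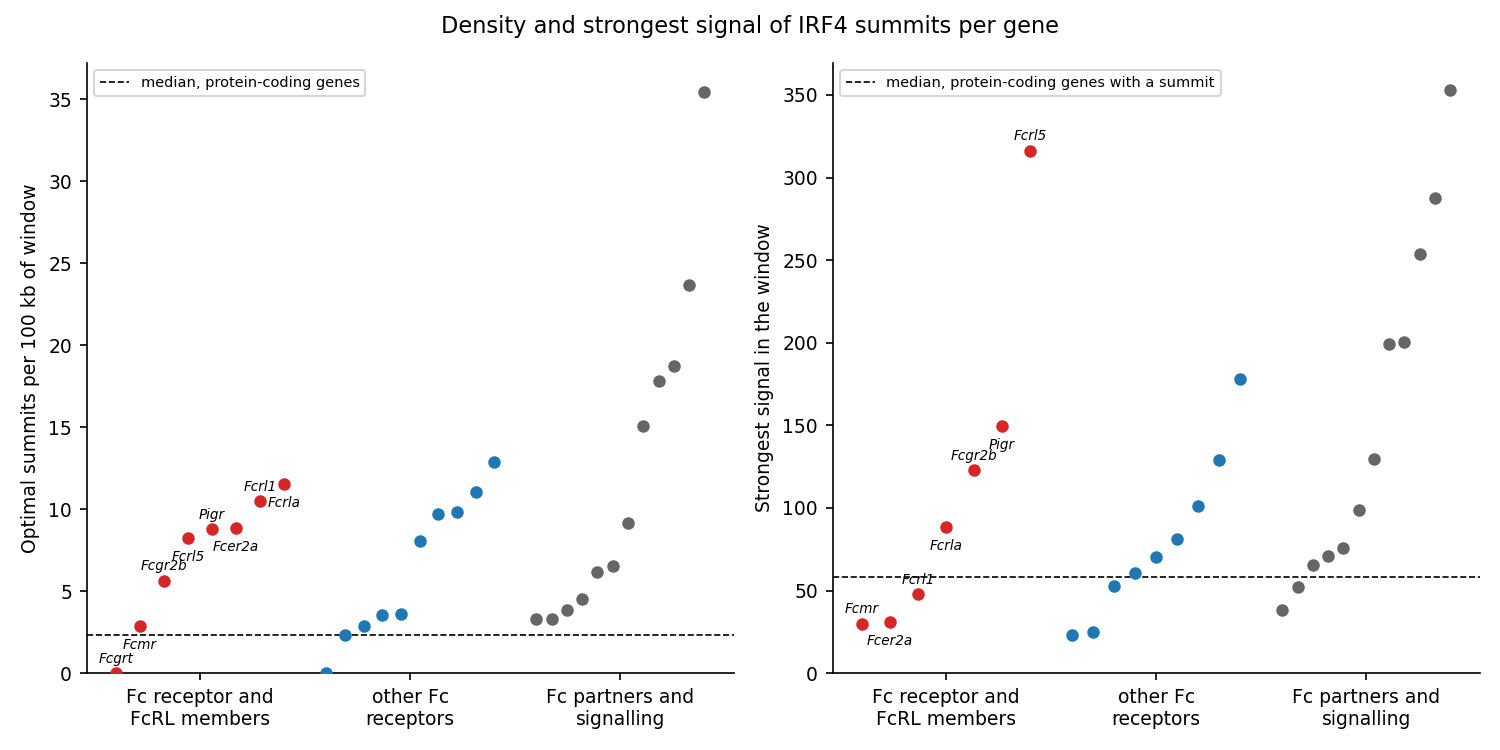
Left, optimal summits per 100 kb of window for each gene of the 3 lists; right, the strongest signal of each gene that had a summit; dashed lines are the medians over protein-coding genes. Among the 8 genes, 7 lie above the dashed line for density (2.34), with Fcgrt at 0, and 4 lie above it for signal (58.3).

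Replicate 2 gave the higher signal at most sites, as over the whole list. Of the 26 summits, 23 (88.5%) were matched in both replicates, against 85.4% of all optimal peaks, and 18 of these 23 (78.3%) were higher in replicate 2, against 82.8% of all. The median log2 ratio of replicate 2 to replicate 1 was 0.61 (SD 0.77, from -1.23 to 2.09) at these genes and 0.53 (SD 0.66) over all matched peaks. The 3 strongest signals of replicate 1, at Fcrl5, Fcgr2b and Pigr, had log2 ratios of 0.08, 0.17 and -0.05, and the strongest Pigr site had 0.76. Choosing sites by replicate 1 favours low ratios, so these values do not show that strong sites differ less between replicates.

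**Figure D4:**
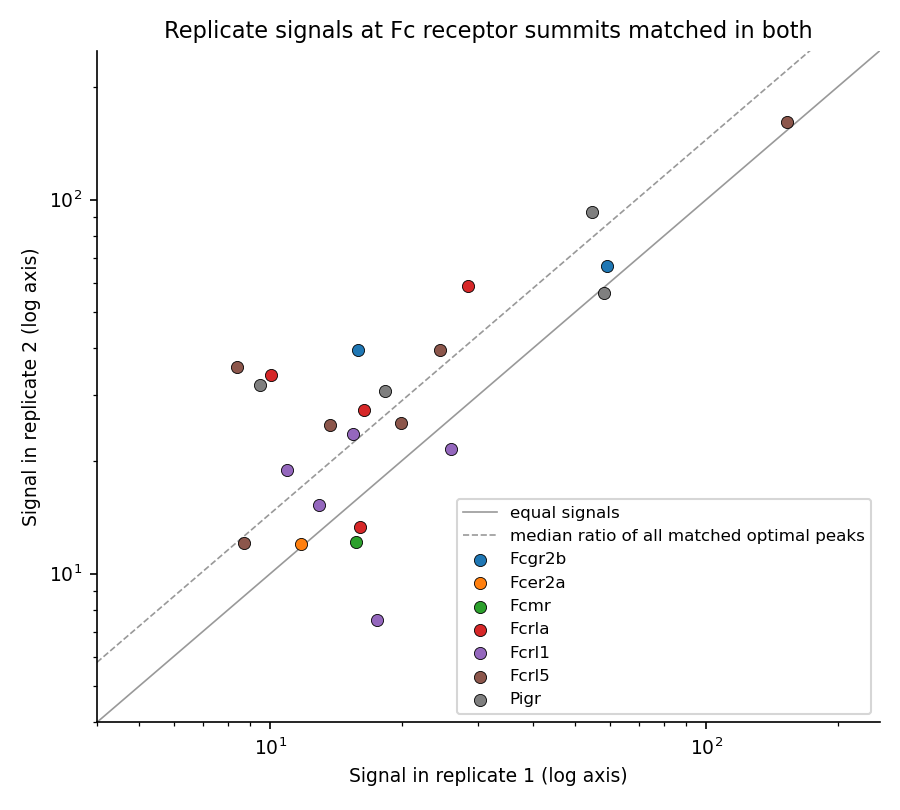
Signal in replicate 2 (y axis) against replicate 1 (x axis), both on log axes, for the 23 summits matched in both replicates, coloured by gene; the solid line marks equal signals and the dashed line the median ratio over all matched optimal peaks. Points scatter on both sides of the dashed line, with the Fcrl5 site of 153 and 161 at the upper right.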

How the data were processed

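The data were 6 deposited peak lists in narrowPeak format. Per the deposited file descriptions, relaxed lists were made on mm10 for each replicate and for the pooled replicates, and the optimal and conservative IDR lists (44058 and 35879 peaks) from them. A separate mm9 list (27671 peaks) came from the alignments of both replicates. The deposited signal is the authors' caller value, with caller, aligner and depth not given in the sources used here. Another deposited column gives the summit offset in bases.

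Genes were those of RefSeq GRCm38, and promoter sequences those of RefSeq GRCm38.p6. Because the genome in use was mm9, motifs were searched on the mm9 list, with peaks matched by distance from the same start (each promoter had 1 exact match in mm9); no coordinates were converted. Of 21631 protein-coding genes, 17274 had a start. No test was run. The members and lists were chosen with earlier results of these data known. Named summits are the strongest and the one nearest to the start of each gene and the 10 strongest over all; the AICE site of Fcrl5 and the sites given by distance and signal only were named after their values were seen. Of the further genes, those that share a summit with a member and the 4 with the strongest summit are named.

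Scripts ran in Python 3.11.15 with pandas 2.3.3, numpy 2.4.6, matplotlib 3.10.9 and scipy 1.17.1. Tested on simulated data, the assignment of summits to 2000 genes and the motif search in 2200 windows recovered 100% of what was set in. Alternatives changed the window, the list, the replicates, the matching distance and the motif window.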

Additional observations from a re-analysis of the deposited data

How the results depend on the processing

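The count of 7 genes with a summit ranged from 5 to 8 over the alternatives: 8 with 50 kb either side, 5 among the stronger 50% of peaks, and 6 for the gene body, for 2 kb either side, in the conservative list and in the mm9 list with its own annotation. Over all protein-coding genes the share was 77.4% with 50 kb, 44.9% with the stronger 50% of peaks, 41.9% for the gene body, 53.3% with 2 kb, 57.4% in the conservative list and 46.9% in the mm9 list. The 26 distinct summits became 13 in gene bodies, 15 with 2 kb, 62 with 50 kb, 14 among the stronger 50% and 12 in the mm9 list, because windows and lists are smaller or larger; the conservative list gave 21. Leaving out a replicate, with as many peaks from the other alone, gave 24 to 25 summits and 7 genes, against 63.7% of all genes without replicate 1 and 62.3% without replicate 2. The further genes with a summit numbered 17 to 21. The strongest signal became 55.7 for Fcgr2b and 44.4 for Pigr in the gene body alone, and 104.9 for Fcer2a and 149.4 for Fcmr with 50 kb. The median log2 ratio between replicates was 0.54 with matches within 50 bp (18 summits) and 0.64 within 250 bp (26 summits). IRF elements lay at 3 of the 14 sites within 25 bp (10.4% of all mm9 summits) and at 6 within 100 bp (19.7%). With any base first in the EICE, an alternative chosen after seeing the data, they lay at 7 (21.8%). No paired analysis was possible because there is 1 group and no test. Unknown depth limits what the absence of a summit at Fcgrt can show.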

Other observations

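Around the 3 gene clusters, many summits lay outside the windows of the 8 genes. From 10 kb before Cd5l to 10 kb beyond Etv3 there were 22 summits, of which 12 belonged to Fcrl1 or Fcrl5. Likewise, from Fcrlb to Fcgr3 there were 18, of which 6 belonged to Fcrla or Fcgr2b, and from Fcamr to Il24 there were 8, of which 5 belonged to Pigr or Fcmr. The summit 7263 bp beyond the upstream end of Fcrla held the word AGAAGTGA, which differs from the ETS word in its first base and was looked at after the sequence was seen. That word was found at 1 of the 14 matched sites, against 2.83% of all mm9 summits.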
